A study of Mus musculus with 4 samples.

Results

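The proteins of the cytosolic ribosome were followed through 83 gene names on a mouse expression array. A name was taken in when it began with Rpl or Rps and a digit, or was Rplp0, Rplp1, Rplp2 or Rpsa, after names of ribosomal S6 kinases and of pseudogenes written with -ps had been left out. Of 86 such names, with 178 probes, the 83 had a probe well above background on at least 1 array, out of 17668 names that met this mark and 31703 on the array. The names left were Rpl3l, Rpl39l and Rpl7l1, which were not well above background on any array. The 83 comprised 43 proteins of the large subunit, 30 of the small subunit with Rpsa counted here, the 3 stalk proteins Rplp0, Rplp1 and Rplp2, and 4 paralogs (Rpl10l, Rpl22l1, Rpl36al and Rps27l). The remaining 3 do not encode a ribosomal protein by their annotation: Rps4y2 is Rps4l in RefSeq and is represented by a non-coding transcript, Rpl26l1 is the pseudogene Rpl26-ps4, and Rps19bp1 encodes a protein that binds Rps19.

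The cells were erythrocyte/megakaryocyte progenitors (MEP), the bone marrow and fetal liver cells from which red cells and platelets descend, all on a C57BL/6 background. There were 4 groups of 1 one-colour array each: adult bone marrow labelled Ezh2-null, adult bone marrow labelled wild type, E14.5 fetal liver labelled Ezh2-null and E14.5 fetal liver labelled wild type. Ezh2 is the histone methyltransferase of the Polycomb repressive complex that marks lysine 27 of histone H3. The labels state neither how the cells were sorted, nor how many animals were pooled, nor which part of Ezh2 was deleted or by which driver. The single Ezh2 probe, which starts at base 2558 of the transcript, gave 70.0 in labelled-null and 35.4 in wild type bone marrow, and 194 in labelled-null and 33.5 in wild type fetal liver. It was thus brighter on both labelled-null arrays, and since the deleted part is not given it could not check the labels. "Null" below means labelled Ezh2-null.

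A ribosome needs 1 copy of nearly every one of these proteins, with more of the stalk proteins, together with the ribosomal RNAs. Cells make them in matched amounts, and surplus proteins are degraded. Their mRNAs are short, abundant and start with a tract of pyrimidines, the 5' terminal oligopyrimidine (TOP) motif, through which growth signals acting on mTOR and Larp1 control their translation. Red cell precursors depend on them: loss of 1 copy of any of several ribosomal protein genes causes Diamond-Blackfan anaemia in humans, a failure to make red cells.

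The probes of 3 members are shown because the results turn on them: Rplp1, the member furthest down in null fetal liver, and Rpl5 and Rps3a, both higher in bone marrow in each genotype. The sequences are those of the scanner files, and positions are mm9. The Rplp1 probe lies at chr9:61761259-61761318 on the minus strand and the Rps3a probe at chr3:85942435-85942494 on the minus strand. The Rpl5 probe lies at chr5:108333834-108333892 on the plus strand, where the file gives a span of 59 bases for a probe of 60.
Rplp1: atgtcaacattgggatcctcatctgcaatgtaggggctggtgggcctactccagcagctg
Rpl5: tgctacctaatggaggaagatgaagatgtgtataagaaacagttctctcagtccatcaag
Rps3a: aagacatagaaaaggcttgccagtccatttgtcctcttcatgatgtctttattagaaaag

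The starts of the members' transcripts were read from RefSeq (GRCm38.p6), where 61 members had an entry and 72 starts in all. A tract of C followed by at least 4 pyrimidines began exactly at the first base in 13 of 72 member starts (18.1%), against 2.51% of all 32851 starts. It began within 10 bases of the start in 52.8% of member starts, against 30.7% of all. CCGGAAG, read on both strands over 300 bases (250 before the start and 50 after), was in 36.1% of member starts, against 8.86% of all, and TATAAA, read the same way, in 9.72%, against 13.6%. These matches describe the letters only. Shown are 6 of the 13 starts with a tract at the first base, the 3 members furthest down in null fetal liver and the 3 nearest to no difference, as 15 bases before the start and 15 after, with the tract in capitals. In the order given they lie at chr7:118116133-118116162 (minus strand), chr11:114668565-114668594 (plus), chr17:33955651-33955680 (minus), chr2:39005117-39005146 (minus), chr9:120571502-120571531 (plus) and chr4:86857353-86857382 (minus).
Rps15a: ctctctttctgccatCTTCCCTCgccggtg
Rpl38: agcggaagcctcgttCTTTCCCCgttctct
Rps18: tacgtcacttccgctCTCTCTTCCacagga
Rpl35: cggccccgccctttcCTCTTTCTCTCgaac
Rpl14: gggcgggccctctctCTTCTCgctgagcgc
Rps6: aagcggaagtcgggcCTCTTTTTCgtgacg

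Levels below are the background-corrected signal after shifting each array so that its 75th percentile, taken on the 12880 probes that every array detected, was the same. A level compares arrays for 1 probe and does not compare 1 gene with another. Where a gene had several probes, the brightest stood for it. With 1 array a group no comparison of conditions has a replicate: a member is called higher or lower at 2-fold or more (1 on the log2 scale), with no p-value, and differences are log2. Probes printed 10 times gave the error within arrays, an SD of a difference of 0.18 for null over wild type in fetal liver, 0.13 in bone marrow, 0.14 for bone marrow over fetal liver in null cells and 0.16 in wild type cells. That error leaves out the animal, the sort and the labelling.

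All members but Rpl21 were well above background on all 4 arrays, between 39.0% and 46.4% of all probes being so on an array. The median level of the 83 was 14000 in null bone marrow and 13980 in wild type bone marrow, against 11550 in null fetal liver and 21280 in wild type fetal liver. As scaled here, the wild type fetal liver array therefore stood above the other 3. Levels ran up to 139500, the Rpl41 probe in wild type fetal liver, and down to the Rpl21 probe, which was near background at 45.9 in null and 14.9 in wild type bone marrow and at 21.1 in null and 9.23 in wild type fetal liver. Rps12, Rpl41 and Rps20 had the brightest probes, and Rpl21, Rpl10l and Rpl22l1 the faintest.

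**Figure D1:**
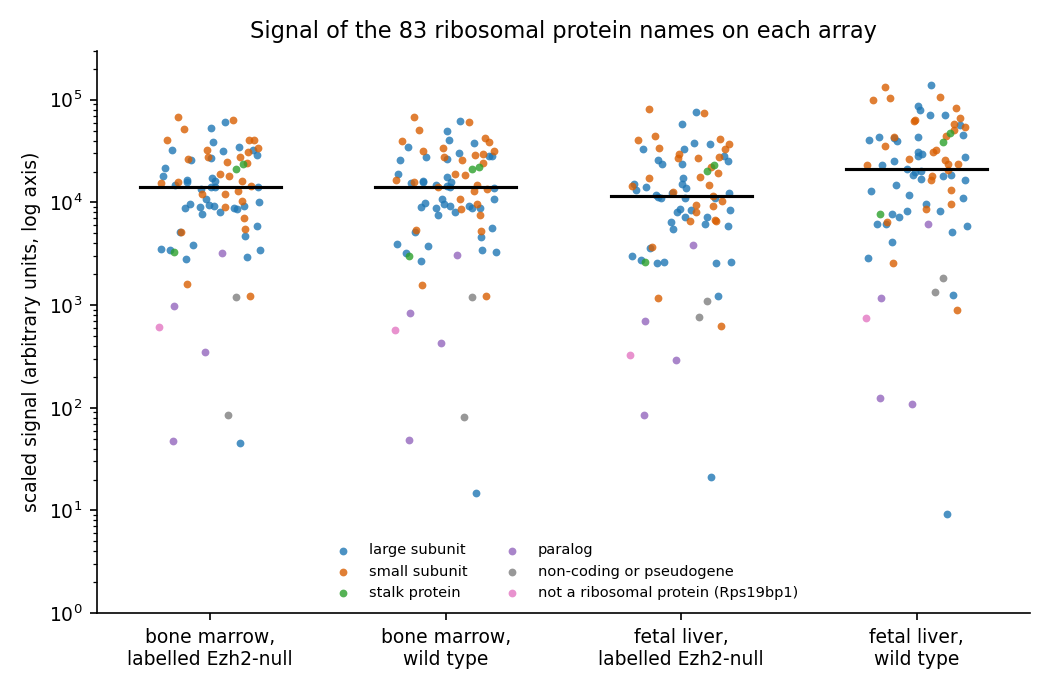
Scaled signal of each of the 83 members (points, coloured by class) on the 4 arrays, on a log axis; the black line is the median. In bone marrow the median is 14000 in null and 13980 in wild type cells; in fetal liver it is 11550 in null and 21280 in wild type cells.

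Loss of Ezh2, as labelled, was first compared within fetal liver. Most ribosomal protein mRNAs had a lower signal in null than in wild type MEP: 78 of the 83 differences were below 0, 33 members were at least 2-fold lower and 1, the paralog Rpl22l1, was at least 2-fold higher. Over all 16257 genes compared, 8905 were below 0, 13.5% were 2-fold lower, 15.4% were 2-fold higher and 28.9% were called in either direction. The members' median difference was -0.89, against -0.14 over all genes. The members kept close together, with a middle range of -1.11 to -0.67, against -0.67 to 0.48 over all genes. In these bulk samples fewer cells of a type and less RNA per cell cannot be told apart.

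The stalk of the large subunit, which draws in the translation factors that bind GTP, was lower in all 3 of its parts. Rplp1 had a level of 2607 in null fetal liver, against 7776 in wild type, a difference of -1.58 (2.98-fold) and the lowest of the 83. Its partner Rplp2 had 23300 in null and 47940 in wild type (-1.04), and Rplp0, which anchors both, had 20080 in null and 38860 in wild type (-0.95). All 3 differences are more than 5 times the error within arrays.

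Of the 43 large subunit names, 15 were 2-fold lower and none was 2-fold higher, with a median of -0.87. Rpl19, which helps bridge the subunits, had 2635 in null and 7216 in wild type fetal liver (-1.45). Rpl37a had 14970 in null and 40350 in wild type (-1.43), and Rpl18 had 7164 in null and 18060 in wild type (-1.33). Rpl38, whose loss in mice alters the translation of Hox mRNAs, had 32920 in null and 79030 in wild type (-1.26). Not every large subunit name followed. Rpl7 was brighter in null fetal liver, at 11770, against 7724 in wild type (0.61), short of 2-fold. Rpl4 and Rpl17, which line the exit tunnel of the new protein, were level, with 13250 in null and 12860 in wild type for Rpl4 (0.04) and 2997 in null and 2855 in wild type for Rpl17 (0.07). Rpl5 was level as well, at 1237 in null and 1254 in wild type (-0.02), while Rpl11, its partner in the 5S particle that can hold Mdm2, had 5945 in null and 11050 in wild type (-0.89). Rpl6 (-0.18) and Rpl23a (-0.35) were also among the 8 measured members least lowered. Rpl21 had only a bound (0.13), its probe being well above background in null and not in wild type fetal liver.

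All 30 small subunit names were below 0, with 15 of them 2-fold lower and a median of -1.0. Rps15a had 19510 in null and 50250 in wild type fetal liver (-1.36), and Rps15, a protein of the subunit's head, had 40740 in null and 98470 in wild type (-1.27). Rpsa, the laminin receptor precursor that also sits in the small subunit, was short of 2-fold at 14840 in null and 26040 in wild type (-0.81). Rps6, the substrate of the S6 kinases, had 6712 in null and 9645 in wild type (-0.52).

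The paralogs did not move as 1 group. Rpl22l1, whose mRNA is held down by Rpl22 in mouse cells, had a level of 292 in null and 109 in wild type fetal liver, a difference of 1.42 (2.67-fold), while Rpl22 itself had 11040 in null and 14630 in wild type (-0.41). Rps27l was at -0.72 beside -1.17 for Rps27, Rpl36al at -0.68 beside -0.94 for Rpl36a, and Rpl10l, a retrogene of Rpl10 used in testis, at -0.54 beside -0.86 for Rpl10. Rps4y2 (-0.83) and Rpl26l1 (-0.74) were lower by about as much as Rps4x (-0.67) and Rpl26 (-0.69), their protein-coding counterparts. Rps19bp1 had 325 in null and 753 in wild type (-1.21).

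The 19 members whose human counterparts are Diamond-Blackfan anaemia genes were all below 0, with 10 of them 2-fold lower and a median of -1.02. Rps19, the gene most often affected in that disease, had 1185 in null and 2565 in wild type fetal liver (-1.11). Rps26 had 8155 in null and 16570 in wild type (-1.02). The 19 ran from Rps15a (-1.36) to Rpl5 (-0.02). Their share of 2-fold lower names was 52.6%, beside 39.8% of all members and 13.5% of all genes. For the 76 names of both subunits and the stalk it was 42.1%. These lists overlap, and the gap between their shares was not tested.

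**Figure D2:**
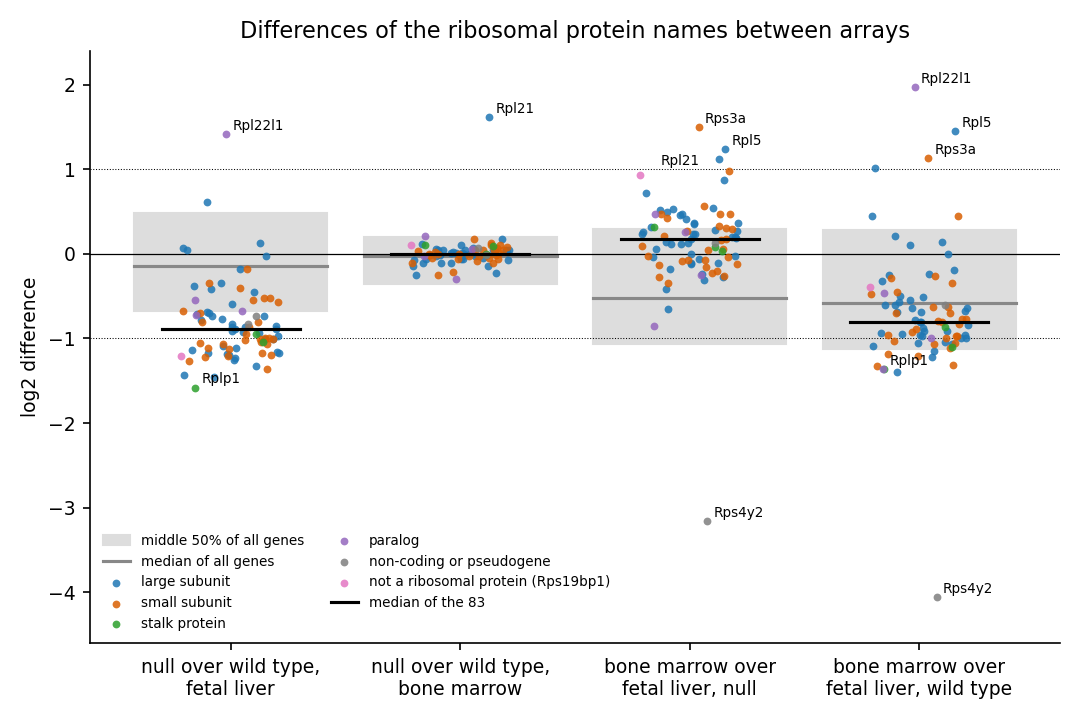
Log2 differences of the 83 members (points, coloured by class) in the 4 comparisons, with the middle 50% of all genes as a grey box, the median of all genes as a grey line, the members' median as a black line and 2-fold marked by dotted lines. The members' medians are -0.89, 0.00, 0.17 and -0.80 from left to right.

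How far the members lie below wild type in fetal liver depended on the scaling. Quantile normalization, which forces the arrays to 1 distribution, gave a median of -0.39, with 2 members 2-fold lower and 2 higher. With spike-in scaling the median was -0.44, with 1 lower and 2 higher. Of all genes, 14.3% were lower and 15.7% higher with quantile normalization, and 5.02% and 23.5% with spike-in scaling. Spike-in scaling also moved the median of all genes, to 0.23, so the members' distance from it was -0.67, against -0.75 as first scaled and -0.22 after quantile normalization. Rplp1 lay between -1.74 and -0.91 and Rpl22l1 between 0.86 and 1.88 over the 15 ways of processing. The direction of the members' median was the same in all 15.

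The fetal liver difference also went along with where the probe sat and how bright it was, over the whole array. Among genes outside the family, the median difference was -0.39 for the quintile of probes nearest the transcript's start and 0.25 for the quintile farthest from it. It was 0.18 for the quintile of lowest GC content and -0.38 for the highest, and 0.00 for the faintest quintile and -0.39 for the brightest. The members' probes sit early and are bright, with a median start at base 446, against 1376 for other genes, and a median level of 15160, against 39.7. Across the 83 members the difference went with probe start (r = 0.43), GC content (r = -0.45) and mean level (r = -0.33), all read on the same arrays. With the trend on probe start removed the members' median was -0.64. Then 5 were lower and 1 higher, against 12.9% and 13.8% of all genes. With all 3 trends removed the members' median was -0.40, against -0.18 over all genes. Then 1 member was lower and 1 higher, against 13.9% and 12.2% of all genes. In bone marrow the same quintiles of other genes ran only between -0.13 and 0.02.

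**Figure D3:**
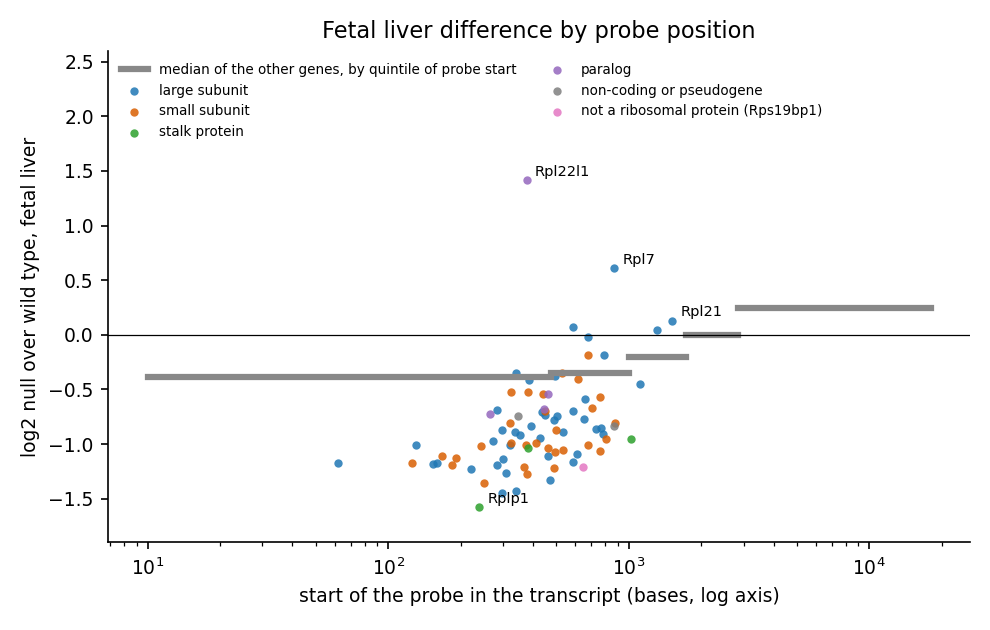
Log2 difference of null over wild type fetal liver for each member (points) against the start of its probe in the transcript (log axis), with the median of all other genes in each quintile of probe start as grey bars. The bars climb from -0.39 to 0.25, most members lie below the bars at their own position, and Rpl22l1 (1.42) and Rpl7 (0.61) lie above.

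Markers of other cells differed between the same 2 arrays. The 8 measured genes of later red cells (globins, Ahsp, Alas2, Bpgm and Slc4a1 among 10 on the array) summed to 35270 in null and 117600 in wild type fetal liver, with 6 of 8 at least 2-fold lower in null. Hepatocyte genes, 3 of 8 well above background in null and 4 of 8 in wild type, summed to 136 in null and 640 in wild type. In bone marrow the later red cell genes ran the other way, at 18890 in null and 5378 in wild type, and lymphoid genes summed to 4035 in null and 188 in wild type. From 8 to 10 of the 10 genes fixed as MEP markers were well above background on each array. The part of these markers in the members' difference was not tested.

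In bone marrow the same genotype comparison gave almost no difference. The median of the 83 was 0.00, against -0.03 over all genes. Within 0.25 of 0 lay 80 of the 83, and 7135 of all 15279 genes. No member was 2-fold lower, where 7.74% of all 15279 genes were, and 1 was 2-fold higher, where 4.54% were (12.3% in either direction). That one was Rpl21, at 45.9 in null and 14.9 in wild type (1.62), a faint probe whose other probe for the gene went the opposite way. Across the 82 members well above background everywhere, the log2 levels of the 2 bone marrow arrays correlated at r = 0.999, against 0.983 over all 11177 such genes. In fetal liver the same correlation was 0.977 over members, against 0.938 over all. The members' probes are brighter than most, as given above, and the part of brightness in these correlations was not tested.

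The closeness held for the members that stood apart in fetal liver. Rplp1 had 3254 in null and 3023 in wild type bone marrow (0.11), Rpl19 had 3815 in null and 3723 in wild type (0.04), and Rps15a had 24150 in null and 24340 in wild type (-0.01). All 3 pairs differ by less than the error within arrays. The 3 stalk proteins lay between 0.00 and 0.11, and the 30 small subunit names between -0.25 (Rps24) and 0.17 (Rps26). Rps19 had 1588 in null and 1583 in wild type (0.00), and 18 of the 19 Diamond-Blackfan genes lay within 0.25 of 0. The lowest measured member was Rpl22l1, at 349 in null and 429 in wild type (-0.30), followed by Rps24 (-0.25), Rpl4 (-0.25), Rpl5 (-0.23) and Rps3 (-0.22). Beyond 2 SD of each comparison's error within arrays were 3 members here, against 75 in fetal liver. The same count was not made over all genes. Of all genes, 12.3% were 2-fold apart in bone marrow and 28.9% in fetal liver.

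An additive limma fit over all 4 arrays, with genotype and source as terms and 1 residual degree of freedom, called no member for genotype at an adjusted p of 0.05. The lowest adjusted p among members was 0.914 in limma, and 0 members had an unadjusted p under 0.05, while 200 of 14811 genes (1.35%) had one and 0 passed after adjustment. This fit averages fetal liver and bone marrow, which differed from each other in the members' genotype difference.

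The other question the design raises is how adult bone marrow differs from fetal liver, in each genotype. In null MEP only Rps4y2 was 2-fold lower in bone marrow and 3 members were 2-fold higher, with a median of 0.17, against -0.52 over all genes, of which 27.1% of 16688 were lower, 10.5% higher and 37.6% in either direction. In wild type MEP most members were lower in bone marrow: 73 of 83 were below 0, 19 were 2-fold lower and 4 were 2-fold higher, with a median of -0.80. All genes leaned the same way in wild type, with a median of -0.58 and 9744 of 15382 below 0. Of them 31.9% were 2-fold lower, 13.1% higher and 45% in either direction. The members' share of lower calls, 22.9%, was thus below the background as first processed. With the trend on probe GC content removed, 31 of 83 members were lower in wild type and 2 higher. Of all genes 34.6% were then lower and 9.63% higher, so the members' share of lower calls was near the background. Between the genotypes, as first scaled, 46 members were higher in bone marrow in null and lower in wild type cells. Another 27 were lower in both and 8 were higher in both. The same counts were not made over all genes, so whether they are particular to the members was not tested. These comparisons use the same 4 arrays as those of genotype and are not separate support for them. The source difference depended on the processing too. In null the median was 1.07 with spike-in scaling, against 0.37 over all genes. There 48 members were 2-fold higher and 1 lower, against 30.7% and 10.1% of all genes. With the percentile taken over all probes the median was 0.80, with 20 higher and 1 lower, against 22.7% and 12.7% of all genes. With the trend on signal removed the null median turned to -0.21. Then 2 members were higher and 1 lower, against 8.13% and 27.7% of all genes. In wild type the median was 0.52 with spike-in scaling, against 0.71 over all genes. There 15 members were higher and 1 lower, against 39.7% and 2.2% of all genes. With quantile normalization the wild type median was 0.00, against -0.25 over all genes. There 4 members were higher and 2 lower, against 16.9% and 17.1% of all genes.

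A few members had the same direction by source in both genotypes under every setting. Rps4y2 had the largest difference, with a level of 85.3 in null bone marrow and 762 in null fetal liver (-3.16, 8.94-fold) and of 81.4 in wild type bone marrow and 1356 in wild type fetal liver (-4.06, 16.7-fold). Rps4x, the protein-coding relative, was at 0.09 in null and -0.48 in wild type cells. Over the 15 ways of processing, Rps4y2 lay between -3.92 and -2.26 in null cells and between -5.05 and -2.74 in wild type cells.

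Rpl5, a 5S particle protein, had 2927 in null bone marrow and 1237 in null fetal liver (1.24), and 3432 in wild type bone marrow and 1254 in wild type fetal liver (1.45). Rps3a had 18720 in null bone marrow and 6603 in null fetal liver (1.5), and 19030 in wild type bone marrow and 8693 in wild type fetal liver (1.13). Both were above 0 in all 15 ways of processing in both genotypes, in null cells between 0.45 and 2.15 for Rpl5 and between 0.98 and 2.41 for Rps3a. Mouse Rps3a has close copies in the genome, and its probe was matched to the name of the scanner file. Rpl4 had 21810 in null bone marrow and 13250 in null fetal liver (0.72), and 25870 in wild type bone marrow and 12860 in wild type fetal liver (1.01). Rps7, another Diamond-Blackfan gene, was at 0.98 in null and 0.45 in wild type cells.

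Rpl22l1 differed little by source in null cells, with 349 in bone marrow and 292 in fetal liver (0.26), and by 3.92-fold in wild type cells, with 429 in bone marrow and 109 in fetal liver (1.97). Wild type fetal liver was thus the array with the low Rpl22l1 level. As first scaled, it was also the array with the high levels of most other members. Rpl10l was lower in bone marrow, at 47.4 in null bone marrow and 85.4 in null fetal liver (-0.85), and at 48.4 in wild type bone marrow and 124 in wild type fetal liver (-1.36). Rplp1 had 3254 in null bone marrow and 2607 in null fetal liver (0.32), and 3023 in wild type bone marrow and 7776 in wild type fetal liver (-1.36). Among the 8 lowest measured members in wild type were also Rpl27 (-1.39), Rps15 (-1.32), Rps21 (-1.31), Rpl36 (-1.22) and Rps28 (-1.21). Of these Rpl27 alone was below -0.5 in null cells (-0.65), and only by its brightest probe. Its other probe was at 0.23 in null cells, with 18410 in bone marrow and 15680 in fetal liver, and at -0.89 in wild type cells. With spike-in scaling the null values of Rpl10l and Rpl27 turned to 0.06 and 0.25.

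**Figure D4:**
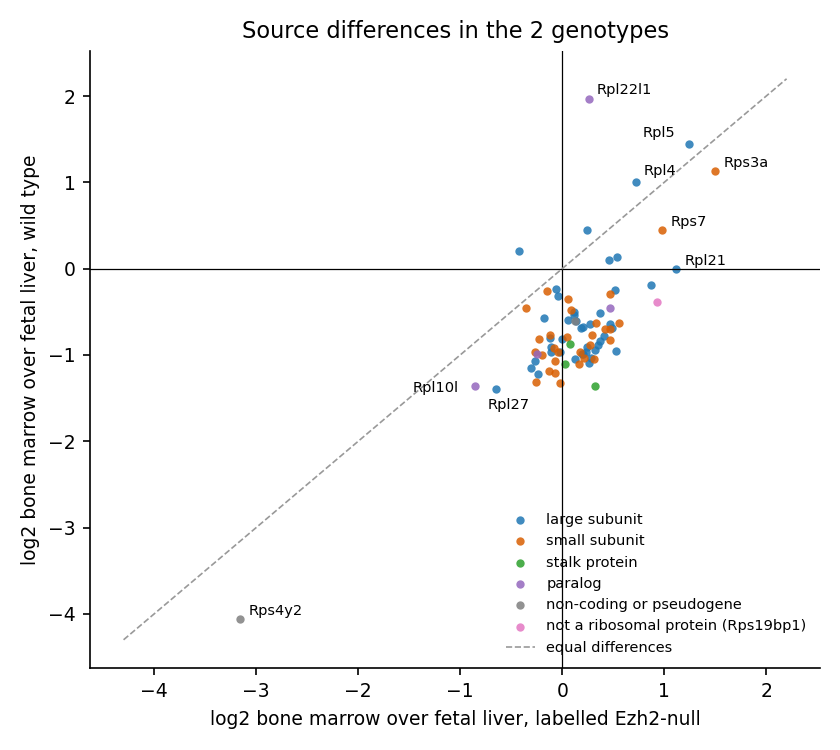
Log2 difference of bone marrow over fetal liver for each member in null cells (x axis) and in wild type cells (y axis), coloured by class, with a dashed line of equal differences. Most members lie around 0 in null and below 0 in wild type cells, Rps4y2 is low in both (-3.16 and -4.06), and Rpl5 and Rps3a are high in both.

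In the additive limma fit, 4 members had an unadjusted p under 0.05 for source, Rpl5 and Rps3a higher in bone marrow and Rps4y2 and Rpl10l lower, 4.82% of members against 16.2% of 14811 genes. None passed after adjustment (the lowest adjusted p in limma was 0.299, shared by these 4 and Rpl4), as for all genes. With the fit run only on the 11177 genes well above background on all 4 arrays, 274 genes passed an adjusted p of 0.05 for source, and Rps4y2 was the 1 member among them.

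Genes that work with the ribosomal proteins were set beside them in the genotype comparisons. Rack1, a scaffold on the small subunit that the name rule leaves out, had 28330 in null and 57520 in wild type fetal liver (-1.02) and was at -0.20 in bone marrow. Fau, a fusion with a small subunit protein that the rule also leaves out, was at -0.71 in fetal liver and -0.01 in bone marrow. Other mRNAs with a TOP motif were spread out: of 15, 4 were 2-fold higher and none 2-fold lower in null fetal liver, with a median of 0.17. The elongation factor subunits Eef1b2 (-0.90) and Eef1g (-0.86) lay near the members, while Eif3e (1.8), Pabpc1 (1.65), Eif4b (1.65) and Hnrnpa1 (1.35) were higher.

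Of 41 genes for processing of ribosomal RNA and assembly of the subunits, 14 were 2-fold higher and 5 lower in null fetal liver, with a median of -0.08. Ncl, the nucleolar protein nucleolin, had 3987 in null and 822 in wild type (2.28), and Npm1 had 32480 in null and 8288 in wild type (1.97). Rrp12 (a bound of 3.49) and Nop14 (3.1) differed most upward and Nmd3, an export adaptor of the large subunit, most downward (a bound of -3.0). In bone marrow none of 39 compared was 2-fold higher and 7 were lower, 1 of them by a bound, with a median of -0.22, beside 4.54% higher and 7.74% lower over all genes. RNA polymerase I and its factors had 2 of 14 higher and 4 lower in null fetal liver (median -0.20), with Twistnb at 1.78 and Znrd1 at -1.43, both polymerase subunits.

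Genes of mTOR and of TOP mRNA control were 2-fold higher in 4 of 9 and lower in none in null fetal liver, with a median of 0.66. Larp1, which binds the TOP motif, had 3442 in null and 555 in wild type fetal liver (2.63), and Tsc1 (2.37), Myc (2.0) and Rheb (1.63) were the others. In bone marrow Larp1 had 67.7 in null and 159 in wild type (-1.23). Of the p53 genes that respond to ribosomal stress, 3 of 9 were 2-fold higher and none 2-fold lower in null fetal liver. The 3 were Mdm2, at 219 in null and 62.7 in wild type (1.8), Sesn2 (2.87) and Pmaip1 (a bound of 1.55). Another 3 of the 9 were below 0: Cdkn1a (a bound of -0.88), Bax (-0.81) and Trp53 itself (-0.20). The lists' counts in fetal liver stand beside the array-wide background there, 15.4% higher and 13.5% lower. The trends on probe start, GC content and signal were not removed from the lists' values, and their part in these differences was not tested.

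**Figure D5:**
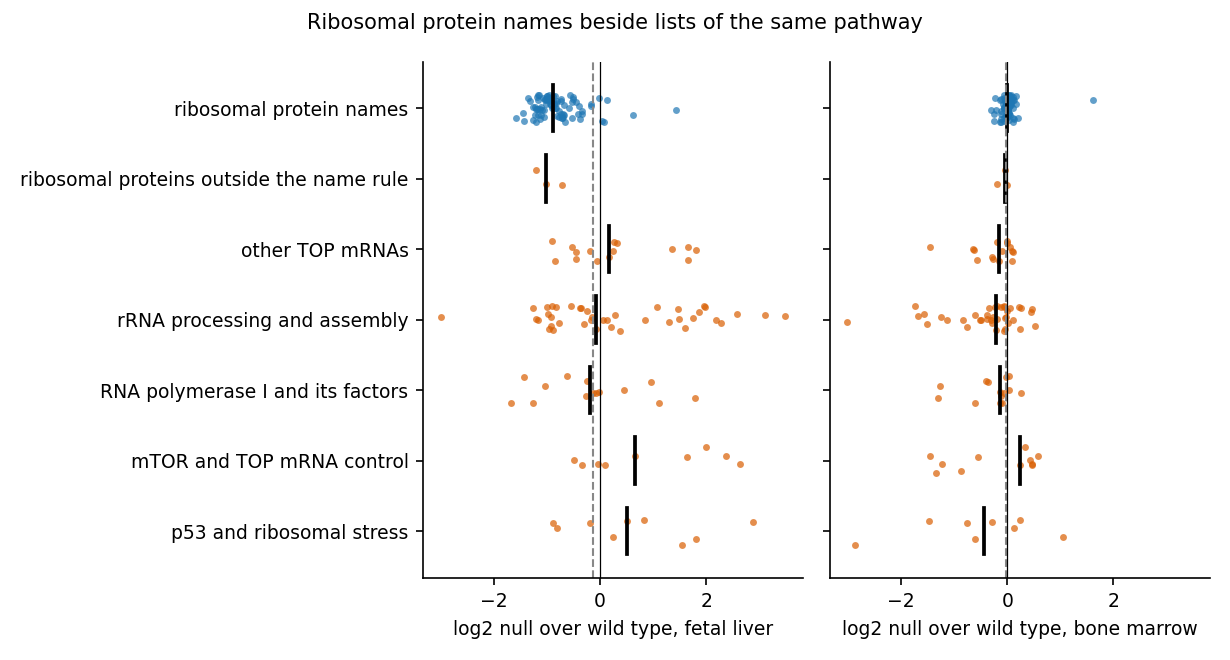
Log2 difference of null over wild type in fetal liver (left) and bone marrow (right) for the 83 members (blue) and for genes of 6 neighbouring lists (orange); black bars are the medians, the dashed line is the median of all genes. In fetal liver the members' median is -0.89 and that of the other TOP mRNAs 0.17, with no trend on probe start, GC content or signal removed.

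How often the probes of a member had the same sign varied by comparison. Of 87 further probes for 52 members, 78 had the main probe's sign for null over wild type in fetal liver, and 57 in bone marrow. For bone marrow over fetal liver, 59 had that sign in null and 78 in wild type cells. The widest range within a gene in that comparison in null cells was 3.33, for Rpl15. The widest range within a gene in fetal liver was 2.56, for Rpl23: 2 of its probes were at -0.38 and -0.66 and another, starting at base 925, was at 1.90 with levels of 106 in null and 28.5 in wild type. Both probes of Rpl15 were below 0 in fetal liver and differed in size: its main probe had 13750 in null and 29750 in wild type fetal liver (-1.11), and a probe starting at base 1530 of the transcript had 73.1 in null and 653 in wild type fetal liver (-3.16), and 869 in null and 1783 in wild type bone marrow (-1.04). The reported probes of Rpl12, Rpl13, Rps29 and Rps4x are placed in the scanner files on another chromosome than RefSeq gives for the gene, and signal from other copies of these genes cannot be told apart.

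Where the RefSeq start carries a tract at its first base, the 13 members had a median of -1.11 in fetal liver, between -1.36 (Rps15a) and -0.52 (Rps6). The 48 other members with a RefSeq start had a median of -0.86, between -1.45 and 1.42. This split was made after the values were known and is given as a description.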

How the data were processed

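Total RNA (250 ng per sample, with one-colour spike-in RNA) was amplified and labelled with Cy3, per the labels' protocols. The deposited processed intensity came from Agilent's Feature Extraction, version 10.7.3.1, background-subtracted and detrended within each array with no step between arrays, per the file headers. The deposited mean and background intensity values served 1 alternative. The series table's deposited values equal the processed intensity to within 0.496%, and its columns had medians between 7.05 and 10.8, so it is on the linear scale and not centred. No spot was saturated.

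Outlier spots were left out, log2 values of a probe's spots were averaged, and each array was shifted to a common 75th percentile, taken on the 12880 probes that every array detected, because fewer than 50% of the 39418 probes were detected on each. The brightest probe stood for a gene. A gene not above background on 1 array of a pair has a bound. It is taken against the higher of that array's faintest detected signal and the gene's own signal there. Genes dim on both arrays were left out. Genes were named through RefSeq by accession for 26048 probes. limma 3.58.1 in R 4.3.3 fitted genotype and source (14811 genes detected on at least 2 arrays), was tested on simulated data, and gave Benjamini-Hochberg adjusted p-values. Python 3.11.15, pandas 2.3.3 and statsmodels 0.14.6 did the rest. Precision is limited by 1 array per group.

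Members and gene lists were chosen with earlier results of these data known. Named were, per comparison, the 8 highest and 8 lowest measured members and up to 4 bounds each way, the 3 brightest and 3 faintest, the stalk proteins, Rpsa, paralogs with their parents, Diamond-Blackfan genes and up to 4 genes per other list. Some genes that this rule takes are not reported here. Further genes, such as Rps6, Rpl11, Eef1b2 and Trp53, were named after their values were seen. The alternatives were other scalings, normexp with an offset of 50, the series table, other probe choices, other filters and removal of trends (lowess, span 0.3).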

Additional observations from a re-analysis of the deposited data

Results flagged for a closer look

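The members' median difference of bone marrow over fetal liver was 0.17 in null cells and -0.80 in wild type cells, medians of opposite sign. With 1 array a group this difference between genotypes was not tested. The null median kept its sign under every scaling, was -0.01 without the trend on probe position and turned to -0.21 without the trend on signal and to -0.30 without all 3 trends. The wild type median was 0.00 after quantile normalization and turned to 0.52 with spike-in scaling.

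Names of ribosomal protein pseudogenes lie outside the rule, yet 67 of 71 on the array were well above background on all 4 arrays. Their medians followed the members' own, at -0.88 for null over wild type in fetal liver and 0.00 in bone marrow, with 22 of 67 2-fold lower in null fetal liver. In bone marrow their median level was 4459 in null and 4159 in wild type cells; in fetal liver it was 3459 in null and 5825 in wild type cells. Of 82 such probes, 11 share a run of 30 bases with a member's probe. How much of their signal comes from the coding genes was not tested.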

How the results depend on the processing

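In null over wild type fetal liver, members 2-fold apart numbered 34 as reported, 4 after quantile normalization (median -0.39), 3 with spike-in scaling (median -0.44), 6 without the trend on probe position (median -0.64), 4 without that on signal (median -0.51) and 2 without the trends on position, signal and GC (median -0.40). In bone marrow the 1 call for genotype became 0 with normexp, with all probes averaged (Rpl21 at -0.09) and with genes detected on all 4 arrays, and 3 with the probe nearest the 3' end. For bone marrow over fetal liver in null cells, the 4 members 2-fold apart became 21 with the percentile over all probes (median 0.80), 7 with the median over detected probes (median 0.41), 49 with spike-in scaling (median 1.07) and 9 with the probe nearest the 3' end. The median was 0.37 after quantile normalization, -0.01 without the position trend, -0.21 without the signal trend and -0.30 without all 3. In wild type cells the 23 members 2-fold apart became 8 with the percentile over all probes (median -0.45), 15 with the median over detected probes, 6 after quantile normalization (median 0.00), 14 with normexp, 15 without the position trend, 14 without the signal trend (median -0.59) and 10 without all 3 trends (median -0.59). Spike-in scaling turned the median to 0.52 and gave 0.10 for Rpl36, 0.01 for Rps21 and 0.11 for Rps28. Members called for source in limma became 1 with genes detected on all 4 arrays, where 11177 genes were fitted, against 14811 as reported. The shares of all genes called moved with the setting too, as given above for several settings. The cause was not tested for any of these changes. The trends on signal, on GC and on all 3 were added after the data were seen. The other alternatives left each total of members 2-fold apart within 1.5 times, though not each direction's share: without the GC trend, wild type cells had 31 members lower and 2 higher in bone marrow, against 19 and 4 as reported, and with the probe nearest the 3' end 21 lower and 9 higher, while null over wild type fetal liver then had 25 lower and 3 higher, against 33 and 1. Signs were followed only for bounds and for the 8 highest and 8 lowest measured members of each comparison. Among these, no other member that was 2-fold apart changed sign. Spike-in scaling moved the median of bone marrow over fetal liver in wild type cells from -0.80 to 0.52. Members outside those followed, such as Rplp2 (-1.10 as reported), can have changed sign there too. No paired analysis was possible because each group holds 1 array, and none can be left out. No array's error between animals is known, so a difference between arrays may be one between samples, and faint probes such as Rpl21 carry little.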

Other observations

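Rps4l-ps, a pseudogene name related to Rps4y2, was also far lower in bone marrow: 42.5 in null bone marrow and 159 in null fetal liver (-1.9), and 17.7 in wild type bone marrow and 348 in wild type fetal liver (-4.3). Rpl10a-ps2 was the next lowest, at 103 in null bone marrow and 370 in null fetal liver (-1.85), and at 102 in wild type bone marrow and 524 in wild type fetal liver (-2.36). Rpl10a, its coding parent, was at 0.20 in null and -0.68 in wild type cells.

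Heatr1, a factor of ribosomal RNA processing, had 425 in null bone marrow and 4448 in null fetal liver (-3.39), and 437 in wild type bone marrow and 1323 in wild type fetal liver (-1.60). Polr1d, a subunit shared by RNA polymerases I and III, had 9328 in null bone marrow and 3934 in null fetal liver (1.25), and 9694 in wild type bone marrow and 4140 in wild type fetal liver (1.23). These genes lie outside the name rule and were picked after their values were seen.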
